A study of Homo sapiens with 2 samples.

Results

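A set of 37 hypoxia-responsive and glycolysis genes was followed in CL1-0, an established human lung adenocarcinoma cell line, 6 h after an antibody to the secreted glycoprotein FSTL1 was given. The set was taken from genes known to respond to low oxygen and from the glycolytic pathway, and a probe set counted for a gene when the platform annotation named that gene and no other. By this rule 80 of 54675 probe sets belonged to the set, 3 of them GAPDH control sets of the array. They covered 35 of the 37 genes, out of 19775 genes with a probe set of their own. Transcripts of CA9 and SLC16A3 were not analysed here, though the promoter windows of both genes are counted below.

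The groups were cells given the antibody for 6 h (1 array) and cells given it for 0 h (1 array). Both came from the CL1-0 line, and the labels' treatment protocol states for both that the cells had been stably transduced and selected with puromycin, with no vector named. With 1 array per time there was no replicate check and no test, and every difference below describes these 2 arrays. Cells kept for 6 h without the antibody were not analysed here, so time in culture and the antibody cannot be told apart.

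Cells sense oxygen through prolyl hydroxylases, which mark the alpha subunits of hypoxia-inducible factor (HIF) for destruction when oxygen is present. When oxygen falls, the stabilised subunits pair with ARNT and switch on genes that carry a short response element with the core letters ACGTG or GCGTG. Their products bring in blood vessels, raise glucose uptake and glycolysis, divert pyruvate to lactate and remove mitochondria. Many tumour cells run glycolysis fast even in oxygen. HIF activity is controlled mainly at the level of the protein, which these arrays did not measure.

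Intensity was on a linear scale. Over the whole array the median was 44.9 at 6 h, against 45.8 at 0 h. An intensity of 45.4, the 50th percentile of both arrays together, served as an assumed background floor, and a gene was measured when a probe set exceeded it on at least 1 array. The probe set brightest on average stands for its gene, and differences are log2 values at 6 h minus those at 0 h. Differences of at least 0.32 in size, a size with no test behind it, are counted below as past 0.32. The labelled cell type, an alveolar type II cell, had 5 of 10 markers measured, with a median difference of 0.26. On the probe sets that stand for them, SFTPB (0.35), NKX2-1 (0.28), ABCA3 (0.26) and NAPSA (0.26) were higher at 6 h. SFTPC (-0.30) was lower, at 92.3 at 6 h and 113.3 at 0 h. Measured sets of the same gene went both ways for SFTPB (3 sets, -0.39 to 0.35), NKX2-1 (2 sets, -0.18 to 0.28) and SFTPC (4 sets, -0.30 to 0.02). ABCA3 and NAPSA had 1 measured set each, and NKX2-1 and NAPSA lay close to the floor. A rise shared by the alveolar markers cannot be read from these sets. SFTPD, LAMP3 and SLC34A2 were below the floor on both arrays. Of 5 epithelial markers 2 were measured, KRT18 at 120.9 at 6 h and 148.2 at 0 h and KRT8 at 52.4 at 6 h and 48.1 at 0 h, while EPCAM, CDH1 and KRT19 were below the floor on both arrays. Of 4 leukocyte markers with a probe set 0 were measured, and of fibroblast and endothelial markers 2 of 6 and 2 of 5. The summed intensity at 6 h and at 0 h was 616.1 and 556.3 for the alveolar markers, 244.1 and 266.5 for the epithelial, 298.2 and 360.6 for the fibroblast, 185.6 and 207.9 for the endothelial, and 90.8 and 100.3 for the leukocyte markers. ABCA3, the brightest alveolar marker, had 207.9 at 6 h and 173.4 at 0 h, and the fibroblast marker COL1A1 had 179.4 at 6 h and 230.1 at 0 h. The 2 measured sets of COL1A1 went opposite ways, at -0.36 and 0.94. These values do not establish the labelled cell type. The part of these markers in the results below was not tested.

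Of the 37 genes, 33 were measured, and 5 of them differed by at least 0.32. VEGFA, the main growth factor of blood vessels, EPAS1, the HIF-2 alpha subunit, BNIP3L, a receptor for the removal of mitochondria, and ALDOC, an aldolase, were between 1.29-fold and 1.42-fold higher at 6 h. ANKRD37, an ankyrin repeat protein induced by HIF, was 1.40-fold lower. On the probe sets that stand for them, the enzymes of glycolysis, ALDOC apart, differed by between -0.15 and 0.06 on log2. Their other measured sets reached from -0.41 (PKM) to 0.15 (PFKL). In bulk RNA, a change in the share of cells that make a transcript and a change in its amount per cell cannot be told apart. Past 0.32 lay 4 of 33 on the higher side, where 6.28% of all 12669 measured genes did, and 1 on the lower side, where 3.0% did. No member reached 1.5-fold in either direction, which 0.750% of all genes did upwards and 0.182% downwards. These shares are too close to the background, for 33 genes, to be read as a result about the set. The median difference of the 33 was 0.01, against 0.02 over all measured genes, with 17 higher and 16 lower. Over all genes 54.3% were higher.

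Among the alpha subunits of HIF, EPAS1 had an intensity of 225.6 at 6 h and 158.3 at 0 h. This is a difference of 0.51, or 1.42-fold, and 1.80% of all measured genes differed by as much in either direction. It rests on 1 probe set, since the other 2 lay below the floor on both arrays, at 18.0 and 10.3 at 6 h and 22.1 and 9.51 at 0 h. HIF1A, the subunit present in most cell types, had 3666 at 6 h and 3397 at 0 h, a difference of 0.11. Both subunits were higher at 6 h, though 50.8% of all measured genes differed by as much as HIF1A in either direction. The difference of EPAS1 exceeded that of HIF1A by 0.40.

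Of the oxygen sensors, EGLN1 was lower on each measured probe set and EGLN3 was not measured. EGLN1 encodes PHD2, the hydroxylase that sets HIF levels in normal oxygen and is itself induced by HIF. Its brightest probe set had 1073 at 6 h and 1168 at 0 h, a difference of -0.12. The other measured sets were also lower, at 171.0 at 6 h and 175.9 at 0 h (-0.04), and at 66.8 at 6 h and 92.9 at 0 h (-0.48). All 3 measured sets were lower, 1 of them past 0.32, with an SD of 0.23 between them. EGLN3 encodes PHD3, a hydroxylase strongly induced by hypoxia in many cells. Both of its probe sets were below the floor on both arrays, at 26.2 and 12.7 at 6 h and 21.6 and 12.7 at 0 h, so it has no direction here.

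Of the 3 secreted signals VEGFA alone passed 0.32. Its brightest probe set had an intensity of 1637 at 6 h and 1153 at 0 h, a difference of 0.51. The other sets had 350.2 at 6 h and 291.4 at 0 h (0.27), 105.5 at 6 h and 79.0 at 0 h (0.42), and 104.6 at 6 h and 95.9 at 0 h (0.13). All 4 sets were higher at 6 h, though 2 of them by less than 0.32, and all are of the _s_at or _x_at type, whose probes match several transcripts. ADM, the vasodilator peptide adrenomedullin, had 7233 at 6 h and 6933 at 0 h, a difference of 0.06. ANGPTL4, an inhibitor of lipoprotein lipase, was close to the floor, at 66.2 at 6 h and 64.7 at 0 h, and its 2 probe sets differed by 0.03 and 0.04. The 3 secreted signals were thus all higher in sign, and 2 of them by under 0.1.

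The other HIF-induced genes went opposite ways. BNIP3L, also called NIX, had 2030.0 at 6 h and 1495 at 0 h on one probe set (0.44) and 1372 at 6 h and 1043 at 0 h on the other (0.40). The sets lay within 0.05 of each other, and 3.21% of all measured genes differed by as much as the brighter one. BNIP3, its paralogue with the same function in mitochondrial removal, had 2784 at 6 h and 2978 at 0 h (-0.10), and its second set 1156 at 6 h and 1157 at 0 h (-0.001). The difference of BNIP3L therefore exceeded that of BNIP3 by 0.54.

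ANKRD37 had an intensity of 100.8 at 6 h and 140.8 at 0 h, a difference of -0.48, the lowest of the set. It rests on 1 probe set, with the other below the floor at 17.3 at 6 h and 22.1 at 0 h. NDRG1, a stress-responsive protein often used as a hypoxia marker, had 168.2 at 6 h and 162.3 at 0 h (0.05). The alpha subunits of collagen prolyl 4-hydroxylase, which stabilises the collagen helix, separated. P4HA1 had 530.0 at 6 h and 497.3 at 0 h (0.09), while P4HA2 had 606.8 at 6 h and 698.4 at 0 h (-0.20) and 134.0 at 6 h and 152.3 at 0 h (-0.18) on its 2 measured sets. P4HA1 exceeded P4HA2 by 0.29.

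Joined together, the oxygen sensors, secreted signals and other HIF-induced genes outside glycolysis numbered 12, of which 10 were measured. Their median difference was 0.04, with 6 higher and 4 lower and a range of -0.48 to 0.51. Each of the 6 genes among them with several measured sets had all of its sets on one side, 3 higher and 3 lower, where 51.2% of the 6122 genes with several sets on the array did. Among the enzymes and lactate dehydrogenases 5 of 9 such genes did (55.6%). VEGFA and BNIP3L were not accompanied by a general shift of this group.

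**Figure D1:**
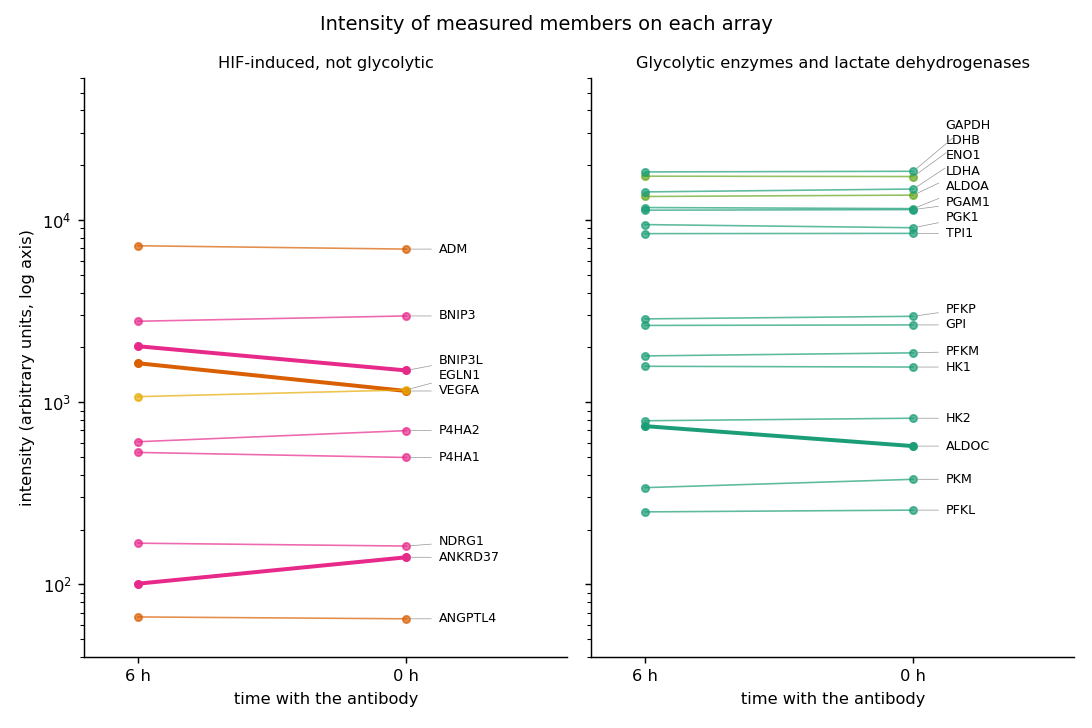
Intensity on a log axis for the 10 measured HIF-induced genes outside glycolysis (left panel) and the 16 measured glycolytic enzymes and lactate dehydrogenases (right panel), with the 6 h array left of the 0 h array in each. Each line is 1 gene on its representing probe set, colours mark the roles, and thick lines mark genes past 0.32 on log2 (VEGFA, BNIP3L and ALDOC higher at 6 h, ANKRD37 lower), while the other lines are nearly level.

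Glucose enters through the facilitative transporters. SLC2A1, or GLUT1, a standard HIF target, had 138.2 at 6 h and 152.9 at 0 h (-0.15) on its 1 measured set. SLC2A3, or GLUT3, had 7533 at 6 h and 6571 at 0 h (0.20), 2644 at 6 h and 2375 at 0 h (0.15), and 2489 at 6 h and 2027 at 0 h (0.30). All 3 of its sets were higher, and SLC2A3 exceeded SLC2A1 by 0.34. A further 2 probe sets are annotated to both SLC2A3 and its near-identical copy SLC2A14 and do not count for either gene. They differed by 0.11 and 0.25, and the copy cannot be assumed to be separated by the other sets.

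The enzymes that carry glucose to pyruvate, with the lactate dehydrogenases that follow, numbered 17, of which 16 were measured. Their median difference was -0.01, with 5 higher and 11 lower, and 1 of the 16, ALDOC, passed 0.32. For 14 of the 16 the difference was under 0.1 in size, where 45.8% of all measured genes stayed within that. Bright genes differed less on these arrays, and the share within 0.1 was 77.5% among 672 genes with a mean log2 of at least 12. The 8 enzymes that bright were all within 0.1, and 6 of the 8 dimmer ones were. Of all 11997 genes with a mean log2 under 12, 44.0% were. Those genes reach down to the floor and are not matched in brightness to the dimmer enzymes, so the shares cannot be compared directly. The limit of 0.1 and the split by brightness were chosen after the values were seen.

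In the first steps, HK1, the hexokinase of most tissues, had 1575 at 6 h and 1560.4 at 0 h (0.01). HK2, the hexokinase induced in tumours and by HIF, had 791.2 at 6 h and 817.0 at 0 h (-0.05) on its brightest set. Its other sets were further down, at 157.5 at 6 h and 187.9 at 0 h (-0.25) and at 141.2 at 6 h and 186.6 at 0 h (-0.40). All 3 HK2 sets were lower, but the size of the difference varied over an SD of 0.18. GPI, which turns glucose 6-phosphate into fructose 6-phosphate, had 2641 at 6 h and 2659 at 0 h (-0.01).

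Phosphofructokinase, the committed step, has liver, muscle and platelet forms. PFKL had 249.9 at 6 h and 255.6 at 0 h (-0.03), with a second set at 136.5 at 6 h and 122.9 at 0 h (0.15) that went the other way. PFKM had 1796 at 6 h and 1867 at 0 h (-0.06), and PFKP had 2869 at 6 h and 2964 at 0 h (-0.05). On their representing sets the 3 forms differed from each other by at most 0.02.

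The aldolases did not move alike. ALDOA, the form that predominates in most tumours, had 11729 at 6 h and 11568 at 0 h, and its 3 sets differed by 0.02, 0.01 and -0.06. ALDOC, known as the brain form and as a HIF target, had 739.2 at 6 h and 574.2 at 0 h on its single probe set. This is a difference of 0.36, or 1.29-fold, which 6.39% of all measured genes reached in size, and it exceeded that of ALDOA by 0.34. Centred on the median the ALDOC difference was 0.34, and after quantile normalization it was 0.310, and under loess scaling 0.317, both under the limit.

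From triose phosphates to pyruvate no enzyme passed 0.32 on its representing set, though the second set of PKM did (-0.41). TPI1 had 8430.2 at 6 h and 8458 at 0 h (-0.005), with its other sets at -0.05 and -0.22. GAPDH, which oxidises glyceraldehyde 3-phosphate and is a common reference gene, had 18399 at 6 h and 18544 at 0 h (-0.01). Its 3 gene sets lay between -0.01 and 0.04, and its 3 array control sets differed by 0.04 near the 5′ end, -0.003 in the middle and 0.02 near the 3′ end. PGK1, which makes the first ATP of the pathway, had 9451 at 6 h and 9082 at 0 h (0.06). Its 5 measured sets lay between -0.14 and 0.06, with 2 higher and 3 lower. PGAM1, the mutase, had 11341 at 6 h and 11427 at 0 h (-0.01).

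ENO1, the enolase of most tissues, had 14289 at 6 h and 14819 at 0 h (-0.05), with all 3 measured sets lower by 0.09 or less. ENO2, the neuronal enolase and a HIF target, was below the floor at 27.2 at 6 h and 20.3 at 0 h. PKM, the pyruvate kinase of tumours and muscle, had 339.6 at 6 h and 377.3 at 0 h (-0.15), and its second set had 59.3 at 6 h and 78.7 at 0 h (-0.41). It was the lowest of the enzymes on representing sets. LDHA, which turns pyruvate into lactate, had 13485 at 6 h and 13721 at 0 h (-0.03), and LDHB, its paralogue that favours the reverse reaction, had 17432 at 6 h and 17353 at 0 h (0.01). GAPDH, PGK1, ENO1, TPI1, PGAM1, ALDOA and the lactate dehydrogenases have processed pseudogenes or close copies, which probes of the _x_at and _s_at type may also detect.

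Genes that set the flux were slightly higher. PFKFB3, which makes the activator of phosphofructokinase, had 934.4 at 6 h and 844.6 at 0 h (0.15). PFKFB4, a related bifunctional enzyme, had 353.3 at 6 h and 332.2 at 0 h (0.09). PDK1, which inhibits pyruvate dehydrogenase, had 462.4 at 6 h and 451.2 at 0 h (0.04), with a second set at 0.02. All 3 were under 0.32, and the PDK1 difference took the opposite sign, at -0.02 and -0.01, under quantile and loess scaling.

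**Figure D2:**
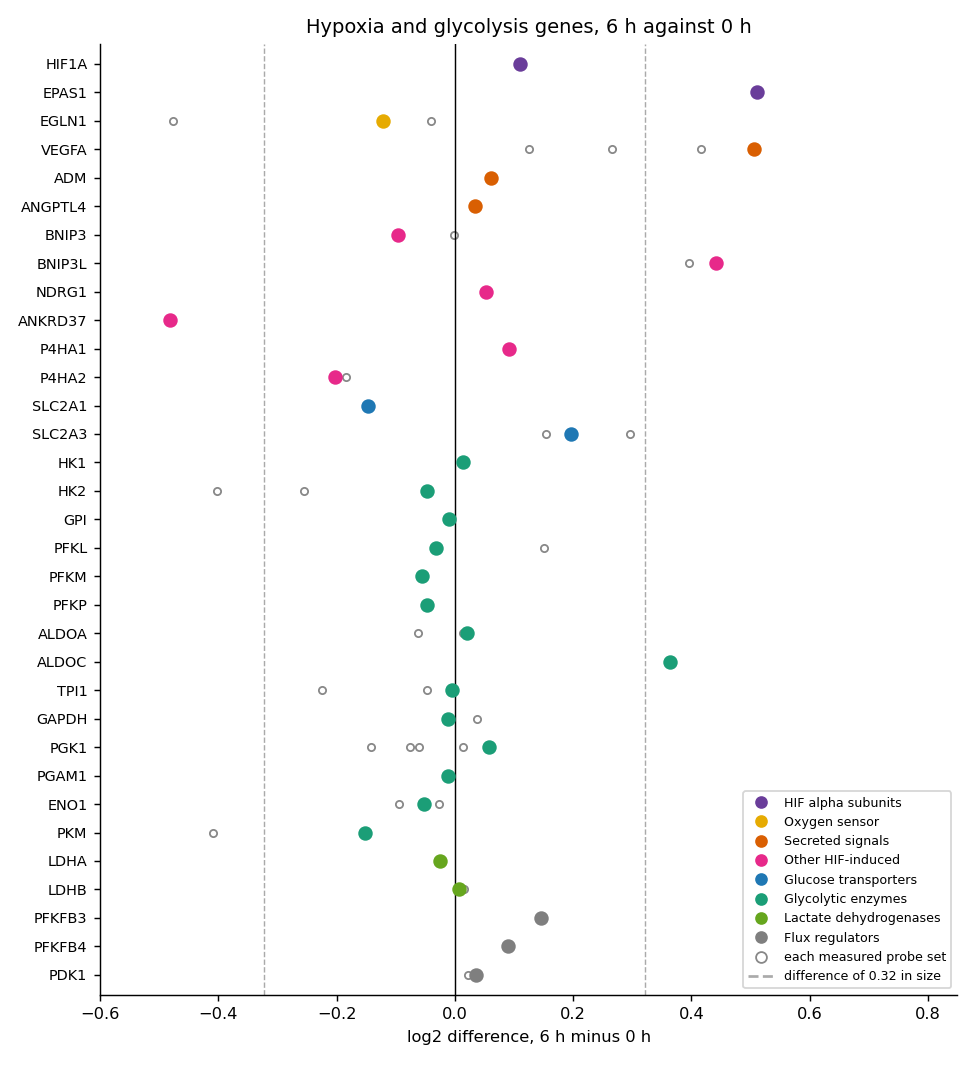
Log2 difference (6 h minus 0 h) of the 33 measured genes, grouped by role from top to bottom. Filled points are the representing probe sets, open points the other measured sets of the same gene, and dashed lines mark a difference of 0.32 in size. Of the filled points, EPAS1, VEGFA, BNIP3L and ALDOC lie beyond the line on the higher side and ANKRD37 on the lower side. The filled points of the other glycolytic enzymes lie between -0.15 and 0.06. Open points of EGLN1 (-0.48), PKM (-0.41) and HK2 (-0.40) also lie beyond the line on the lower side. Open points of VEGFA (0.42) and BNIP3L (0.40) do so on the higher side.

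Set against each other, the HIF-induced genes outside glycolysis had a median 0.05 above that of the glycolytic enzymes and lactate dehydrogenases (0.04 against -0.01). The SD between measured probe sets of one gene was 0.11, pooled over 17 members with several sets, and 0.16 over all genes. With 1 array per time no error can be given for the difference of the medians. The SD across genes was 0.29 for the 10 HIF-induced genes and 0.11 for the 16 enzymes. The groups also differed in brightness, since 1 of the 10 HIF-induced genes, ADM, had a mean log2 of at least 12, against 8 of the 16 enzymes. When probe sets of the _x_at and _s_at types were left out, VEGFA was no longer represented, 6 and 7 genes remained, and the medians were -0.11 and -0.05, so the order of the groups turned round.

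**Figure D3:**
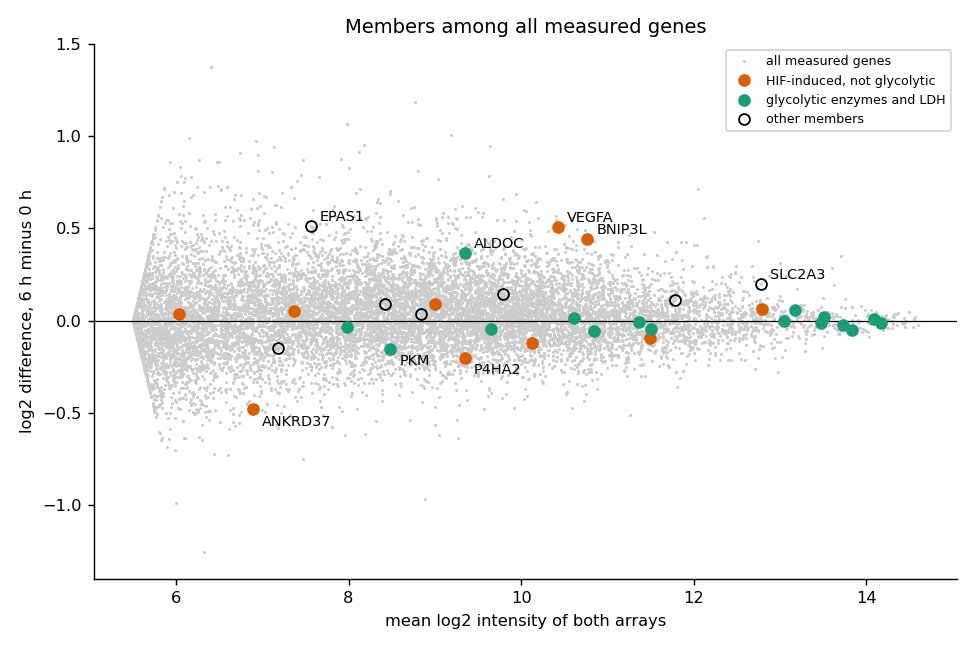
Log2 difference (6 h minus 0 h) against the mean log2 intensity of both arrays for all 12669 measured genes (grey), the HIF-induced genes outside glycolysis (orange), the glycolytic enzymes and lactate dehydrogenases (green) and the other members (open circles). The 8 enzymes with a mean of at least 12 lie between -0.05 and 0.06 at the narrow right end of the cloud, while VEGFA and BNIP3L lie near its upper edge.

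Promoter letters were read from RefSeq windows of 250 bases before to 50 after a gene's start (GRCh38.p14), which were present for 33 of the 37 genes. VEGFA, BNIP3L, NDRG1 and SLC2A3 had none in the table. The letters ACGTG were searched on both strands, so that CACGT on the printed strand also counts, and the search includes the E-box CACGTG, which other factors bind. A match was found in 24 of 60 windows of the members (40%), against 21.4% of all 35116 windows. Since members were picked partly as HIF targets, this share describes the choice of genes. Shown here are the 250 bases before the start for the enzyme with the largest difference (ALDOC), for 2 enzymes that differed by under 0.1 (LDHA and PGK1) and for the lowest member (ANKRD37). Capitals mark ACGTG on either strand, and sequences run 5′ to 3′ on the gene's strand. The other core, GCGTG, is not marked and does not count in the shares above.
ALDOC (chr17:28576896-28577145, minus strand): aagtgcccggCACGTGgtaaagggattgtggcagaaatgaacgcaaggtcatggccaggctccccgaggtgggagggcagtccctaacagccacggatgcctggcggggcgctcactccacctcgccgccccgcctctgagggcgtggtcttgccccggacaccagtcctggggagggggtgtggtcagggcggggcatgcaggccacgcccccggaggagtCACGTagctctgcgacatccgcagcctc
LDHA (chr11:18394313-18394562, plus strand): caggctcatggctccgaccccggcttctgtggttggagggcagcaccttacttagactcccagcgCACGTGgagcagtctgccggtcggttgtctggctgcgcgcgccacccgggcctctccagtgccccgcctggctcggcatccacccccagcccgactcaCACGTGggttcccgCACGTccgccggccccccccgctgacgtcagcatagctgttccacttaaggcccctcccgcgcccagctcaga
PGK1 (chrX:78103998-78104247, plus strand): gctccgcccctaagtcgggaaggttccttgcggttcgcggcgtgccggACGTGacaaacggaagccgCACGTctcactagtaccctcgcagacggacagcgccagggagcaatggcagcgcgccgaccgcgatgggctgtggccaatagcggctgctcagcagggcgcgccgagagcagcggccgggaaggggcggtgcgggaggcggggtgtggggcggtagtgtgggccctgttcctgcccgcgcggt
ANKRD37 (chr4:185396591-185396840, plus strand): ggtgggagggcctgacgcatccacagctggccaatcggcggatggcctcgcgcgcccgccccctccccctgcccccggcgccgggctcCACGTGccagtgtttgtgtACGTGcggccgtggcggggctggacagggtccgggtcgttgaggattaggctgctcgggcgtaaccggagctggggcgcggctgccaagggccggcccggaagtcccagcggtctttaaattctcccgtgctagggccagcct

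LDHA held 3 such places, 185, 87 and 73 bases before the start of the window shown, the one with the most matches. The other LDHA window held 0. PGK1 held 2, at 202 and 183 bases. ALDOC held 2, at 240 and 28 bases, and ANKRD37 held 2, at 162 and 143 bases. These promoters belong to genes with differences of -0.03, 0.06, 0.36 and -0.48. ALDOC and ANKRD37 were picked by these differences. LDHA and PGK1 are not typical of the enzymes under 0.1, since each had a full window with 3 matches, the most of any member. A match was found for 11 of the 17 enzymes and lactate dehydrogenases. The windows of HK1, PFKL, PGAM1, ENO1 and LDHB held 0, as did that of EPAS1 (0.51), the highest member. No relation between letters and transcripts can be read from the genes shown. A match is a description of the letters and says nothing on binding in these cells.

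Other genes of the pathway were taken from lists. Of 15 regulators of HIF, 13 were measured, 2 were past 0.32 upwards and 0 downwards, and the median was 0.12. Over all measured genes 6.28% were past 0.32 upwards and 3.0% downwards, with a median of 0.02, and for 13 genes 2 is close to that share. The largest differences were those of SIAH2, a ubiquitin ligase that targets the prolyl hydroxylases, with 236.1 at 6 h and 180.0 at 0 h (0.39), and of the HIF coactivator EP300, with 1104 at 6 h and 860.9 at 0 h (0.36). The EP300 difference was 0.310 under quantile and 0.316 under loess scaling, both under the limit. The related coactivator CREBBP had 1200.5 at 6 h and 998.9 at 0 h (0.27), and CITED2, which competes with HIF for these coactivators, had 453.0 at 6 h and 385.2 at 0 h (0.23). Both of these lay under 0.32.

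Of 41 further hypoxia-responsive genes 31 were measured, 5 were past 0.32 upwards (16.1%, against 6.28% of all measured genes) and 0 downwards, and 3 were at least 1.5-fold higher, as were 0.750% of all genes. The median was 0.09. The list was chosen with earlier results of these data known, so its share past 0.32 is not read as a result about hypoxia genes. The leading members were ATF3, a stress-induced AP-1 family factor, with 170.7 at 6 h and 86.8 at 0 h (0.98, second set 0.30), and DDIT4, an inhibitor of mTOR signalling, with 1439 at 6 h and 922.5 at 0 h (0.64). MAFF, a small basic leucine zipper factor, had 792.1 at 6 h and 515.7 at 0 h (0.62, or 0.57 and under 1.5-fold with quantile or loess scaling), and the histone demethylase KDM5B had 683.6 at 6 h and 473.0 at 0 h (0.53, 4 sets between 0.46 and 0.74). ATF3, DDIT4 and MAFF respond to many stresses and growth signals besides low oxygen.

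Of 38 other genes of glycolysis and pyruvate handling 23 were measured, 1 was past 0.32 upwards (4.35%, against 6.28% of all measured genes) and 0 downwards, and the median was 0.06. BPGM, which makes 2,3-bisphosphoglycerate, had 523.7 at 6 h and 413.7 at 0 h (0.34). It was the 1 gene past the limit, and lay under it with median centring (0.319) and under quantile (0.286) and loess (0.290) scaling. PDK3, a pyruvate dehydrogenase kinase, had 655.9 at 6 h and 541.8 at 0 h (0.28), with 4 sets between -0.01 and 0.28, while PDP1, the opposing phosphatase, had 552.3 at 6 h and 478.6 at 0 h (0.21). The transporter SLC2A6 had 474.9 at 6 h and 392.7 at 0 h (0.27).

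**Figure D4:**
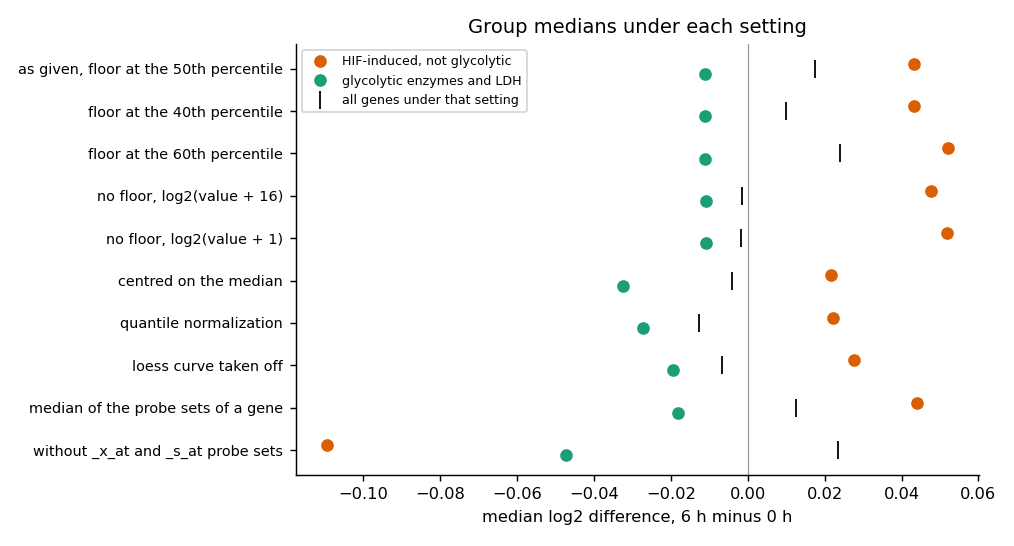
Median log2 difference (6 h minus 0 h) of the HIF-induced genes outside glycolysis (orange), of the glycolytic enzymes and lactate dehydrogenases (green) and of all genes (black ticks) under the setting used in the text (top row) and 9 other settings. The enzymes lie between -0.05 and -0.01 throughout, and the HIF-induced genes lie above them under every setting but the one without _x_at and _s_at probe sets.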

How the data were processed

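Total RNA of CL1-0 cells was hybridised to 2 Affymetrix arrays. The authors deposited 1 intensity per probe set, unlogged. Per the submitters' processing notes MAS5 was used, but its version and any scaling are not given in the sources used here. Values made by MAS5 usually scatter most at the dim end. Here, over 10 equal classes of brightness, the SD of log2 differences was 0.19 in the dimmest class, at most 0.26, and 0.14 in the brightest, so how the values were summarised is not settled. The platform annotation named 1 gene for 41091 probe sets, of which 41037 were matched to RefSeq by gene identifier, and several genes for 1801.

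Values were floored at the 50th percentile, put on log2 and compared without further scaling (pandas 2.3.3, numpy 2.4.6). Other settings were the 40th and 60th percentile as floor, log2(value + 16) or log2(value + 1) with no floor, median centring, quantile normalization, subtraction of a loess curve (statsmodels 0.14.6, span 0.3), the median over the sets of a gene, and omission of _x_at and _s_at sets. The steps were tested on simulated data. Fixed sizes of difference (0.32 on log2, and 1.5-fold) stood in for a test, and the number of arrays limits the precision. All members were to be named, with the 4 largest differences of each pathway list. Members and lists were chosen with earlier results of these data known.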

Additional observations from a re-analysis of the deposited data

How the results depend on the processing

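Across the 9 alternatives, 3 to 5 members lay past 0.32 upwards and 1 downwards, with 0 past 1.5-fold. Of 280 values of single members 276 moved by less than 0.16, the SD between probe sets of a gene, and EPAS1, VEGFA, BNIP3L, ALDOC and ANKRD37 kept their sign wherever they had a value. Part of this was fixed in advance, since the other floors changed no value of a member that stayed measured. The choice of sets could not change EPAS1, ALDOC or ANKRD37, which had 1 measured set each. The sign differed under at least 1 alternative for 6 members close to 0, namely HK1, PFKL, ALDOA, PGK1, LDHB and PDK1. Taking the median of its sets put VEGFA at 0.34 and HK2 at -0.25. Without _x_at and _s_at sets, TPI1 was at -0.22 and PGK1 at -0.14, 17 members remained with a median of -0.046, the HIF-induced genes outside glycolysis had one of -0.11, their median minus that of the enzymes was -0.062, and 3 of 7 enzymes were within 0.1. This setting leaves 7 of the 16 enzymes and omits VEGFA.

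HIF regulators had medians of 0.066 under quantile and 0.072 under loess scaling, each with 1 gene past 0.32 (EP300 no longer), and of 0.18 without _x_at and _s_at sets. Further hypoxia genes had medians of 0.027 and 0.028 with pseudocounts of 16 and 1, where 1 gene was past 0.32 downwards, of 0.050 with the median of sets, and of 0.14 without _x_at and _s_at sets, where 3 were past it upwards. The other glycolysis genes had a median of 0.025 under quantile scaling, and 0, BPGM included, were past 0.32 upwards under quantile, loess or median scaling. The causes of these shifts were not tested. No paired analysis was possible because each time has 1 array.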
